A study of Mus musculus with 13 samples.

Results

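The AP-1 transcription factors measured here are the 8 genes Fos, Fosb, Fosl1, Fosl2, Jun, Junb, Jund and Atf3, taken as the probe sets of the array that carry exactly 1 of these symbols. Each gene had 1 such probe set, and none of them shared a probe set with another gene, so 8 of 34760 probe sets, or 8 of 19937 genes with a symbol of their own, are described. Each array is an Affymetrix Mouse Gene 1.0 ST array that carried RNA of both retinae of 1 mouse. KO mice lack PGC-1α, a coactivator of the genes of mitochondria and oxidative metabolism, in every tissue (global PGC-1α KO on C57 BL/6), and WT mice were C57 BL/6 NRj. All mice were 6 to 13 weeks old and were dark adapted for 16 h. KO light and WT light mice then had their pupils dilated and received white light of 15 klux for 2 h (3 arrays each), whereas KO dark (3 arrays) and WT dark mice (4 arrays) stayed unexposed. Both light groups were labelled male and both dark groups female, apart from WT dark 4, which was male. Light and sex therefore cannot be told apart in any comparison of light with dark. Because the knockout is global and lifelong, retinal cells and other tissues lack PGC-1α together. The methods describe a night of recovery in darkness after the light and several time points of analysis, whereas the description of the series has the eyes removed after exposure. Which of these holds for the arrays is not known here, and for genes of this kind it matters, because their transcripts come and go quickly.

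AP-1 is not one protein but a set of dimers, each made of a Jun protein (Jun, Junb, Jund) with a Fos protein (Fos, Fosb, Fosl1, Fosl2), an ATF protein such as Atf3, or another Jun. The partners zip together through a leucine zipper, and the basic regions beside it grip a short palindrome in DNA; Fos proteins need a Jun partner for this, whereas Jun proteins can also pair with themselves. Most of the genes are immediate early genes, which are switched on without new protein synthesis when kinase cascades from growth factors, membrane depolarization or stress reach factors already sitting on their promoters. In the retina AP-1 is known above all from light damage, since mice without c-Fos are protected from the death of photoreceptors after bright light, and Jun and Atf3 are known as early genes of injured retinal neurons.

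The 250 bases upstream of the start, in RefSeq for the assembly GRCm38.p6, were at hand for 7 members, all but Fosl1. Neither the CArG box, nor the full cyclic AMP response element (CRE) TGACGTCA, nor the AP-1 element TGANTCA, searched on both strands, was found in any of these 7 windows. Bases further upstream were not searched, so these elements may lie outside the windows. Of 32851 upstream windows of the same length in the same table, 1.47% held a CArG box, 1.55% a full CRE and 6.75% the AP-1 element. The CRE half-site TGACGT, which is part of the full CRE and occurred in 6.47% of all windows, was present in Fos and Atf3. Jun held TGACATCA, a sequence bound by Jun and ATF2 dimers in the human JUN promoter and present in 2.93% of all windows. The GC box CCGCCC was found in 5 of the 7 members (Fos, Fosb, Fosl2, Jun and Atf3) and in 32.7% of all windows. The 3 windows with a match to an element of the CRE type are shown in the direction of transcription, with that match in capitals. Fos is at chr12:85473640-85473889 on the plus strand, Jun at chr4:95052223-95052472 and Atf3 at chr1:191183334-191183583 on the minus strand. A match is a description of the sequence only.
Fos: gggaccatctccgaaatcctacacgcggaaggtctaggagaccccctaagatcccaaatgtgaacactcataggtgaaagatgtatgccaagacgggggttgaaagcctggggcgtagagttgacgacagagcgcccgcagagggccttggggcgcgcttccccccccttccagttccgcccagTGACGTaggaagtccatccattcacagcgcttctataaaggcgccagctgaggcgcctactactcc
Jun: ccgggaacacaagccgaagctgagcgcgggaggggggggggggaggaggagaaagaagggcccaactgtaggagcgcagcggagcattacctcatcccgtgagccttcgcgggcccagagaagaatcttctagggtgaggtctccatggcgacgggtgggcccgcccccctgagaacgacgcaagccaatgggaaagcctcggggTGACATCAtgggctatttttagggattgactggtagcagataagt
Atf3: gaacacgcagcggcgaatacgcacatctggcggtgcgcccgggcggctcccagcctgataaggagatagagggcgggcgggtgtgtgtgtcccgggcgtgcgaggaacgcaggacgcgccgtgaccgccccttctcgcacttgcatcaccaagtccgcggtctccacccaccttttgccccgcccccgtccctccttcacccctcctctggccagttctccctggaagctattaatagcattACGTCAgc
The half-site of Fos starts 66 bases before the start on the coding strand, the Jun element 45 bases before it, and the half-site of Atf3 reads on the opposite strand within 8 bases of the start.

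In 2 arrays the values stood apart from the labels. Over all genes, the array labelled WT dark 4 correlated with KO light 1 and 2 at a mean r of 0.9975 and with the other WT dark arrays at 0.9892, whereas the array labelled KO light 3 correlated with WT dark 1 to 3 at 0.9968 and with KO light 1 and 2 at 0.9921. The levels of Xist and of a Y-linked gene fit the labelled sex on each of the 13 arrays, which leaves both of these arrays male. The probe set for Ppargc1a, the gene of PGC-1α, read 10.02, 10.25 and 9.96 (log2 intensity) in KO light, 9.96, 9.85 and 9.99 in WT light, 10.40, 10.19 and 10.26 in KO dark and 10.03, 10.01, 10.02 and 9.96 in WT dark, so it was not lower in KO. Where its probes lie relative to the deleted part is not known here, and it does not check the genotype. All values follow the labels in a model of 12 arrays, 3 per group, without WT dark 4, because the captions of the study give n = 3 for its arrays. For values "with the exchanged arrays" the third KO light array was the one labelled WT dark 4, and the one labelled KO light 3 was left out of that otherwise identical model. That exchange goes against the labels and was chosen with the values of these arrays known, so its p-values describe an alternative and are no independent evidence.

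**Figure D1:**
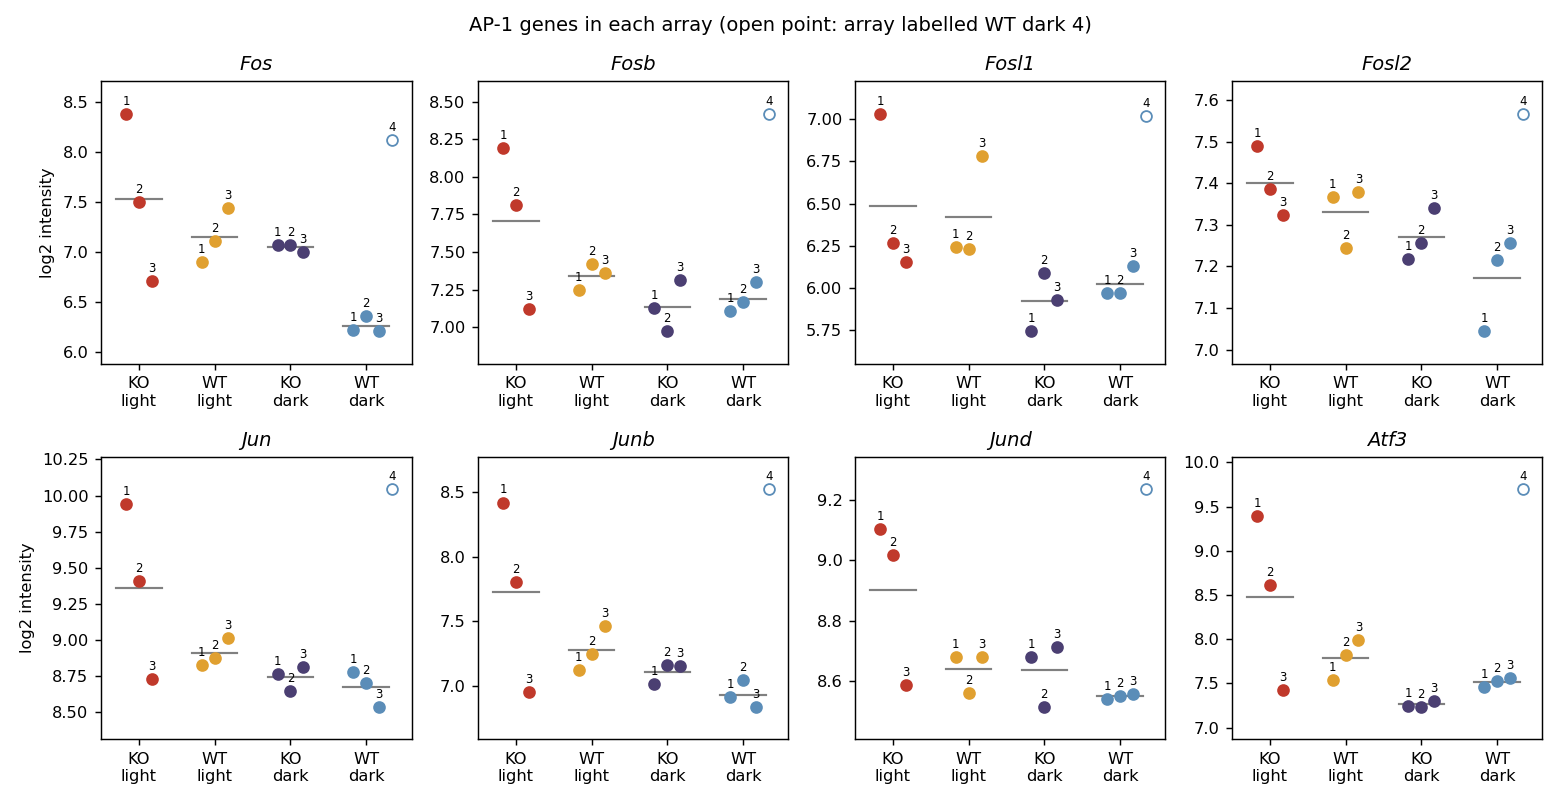
Log2 intensity of the 8 AP-1 genes in each of the 13 arrays (y axis; a separate scale for each gene), by group from KO light on the left to WT dark on the right. Each point is an array with its replicate number, the open point is the array labelled WT dark 4, and grey lines are the means of replicates 1 to 3. KO light 1 and the array labelled WT dark 4 hold the top 2 places for every gene, and KO dark is free of overlap with WT dark 1 to 3 for Fos (higher) and Atf3 (lower).

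Fos encodes c-Fos, the founding member of the family and the classical marker of recent activity in neurons. Its log2 intensity was 8.38, 7.50 and 6.71 in KO light 1, 2 and 3, and 6.90, 7.11 and 7.44 in WT light. In KO dark it was 7.07, 7.07 and 7.00, against 6.22, 6.36 and 6.21 in WT dark 1 to 3, and the array labelled WT dark 4 read 8.12. WT dark 1 to 3 were thus the 3 lowest of all 13 arrays, and neither WT light nor KO dark overlapped with them.

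Fos was 1.85-fold as high in WT light as in WT dark (log2 difference 0.89 ± 0.30 SE, 3 arrays each) and 1.73-fold as high in KO dark as in WT dark (0.79 ± 0.30). In the model of all 4 groups neither difference passed (limma, Benjamini-Hochberg adjusted p = 0.164 and 0.538). The model shares 1 estimate of the spread among the groups, and KO light had an SD of 0.84 for Fos, against 0.27 in WT light, 0.04 in KO dark and 0.08 in WT dark. When only the 6 arrays compared were fitted, Fos rose in WT light (adjusted p = 0.0117) and was higher in KO dark than in WT dark (log2 difference 0.79 ± 0.05, adjusted p = 0.000698). It was then the only member called in either comparison, where 1.76% and 0.261% of all genes were called higher. Among KO arrays the light response of Fos was 0.48 ± 0.30 as labelled (adjusted p = 0.503) and 0.95 ± 0.18 with the exchanged arrays (adjusted p = 0.0021).

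Fosb, which also gives rise to the long-lived truncated form ΔFosB by splicing, had log2 intensities of 8.19, 7.81 and 7.12 in KO light, 7.25, 7.42 and 7.36 in WT light, 7.12, 6.97 and 7.31 in KO dark and 7.10, 7.17 and 7.30 in WT dark 1 to 3. The array labelled WT dark 4 was the highest of all, at 8.42. KO light 1 and 2 and that array stood above the rest, while KO light 3 lay among the dark arrays. Unlike Fos, Fosb showed no separation of KO dark from WT dark (log2 difference -0.05 ± 0.20, 95% interval -0.48 to 0.37).

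Fosl1 encodes Fra-1, which lacks the transactivation domain of c-Fos and is itself a target of AP-1 in other cells. It read 7.03, 6.27 and 6.15 in KO light, 6.24, 6.23 and 6.78 in WT light, 5.75, 6.09 and 5.93 in KO dark and 5.97, 5.97 and 6.13 in WT dark 1 to 3, with 7.02 in the array labelled WT dark 4. It was the only member for which a WT light array, WT light 3, took the third place among the 13 arrays. All 3 arrays of KO light lay above all of KO dark, and all 3 of WT light above WT dark 1 to 3.

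Fosl2, which encodes Fra-2, varied least. It ranged between 7.32 and 7.49 in KO light, 7.25 and 7.38 in WT light, 7.22 and 7.34 in KO dark and 7.04 and 7.26 in WT dark 1 to 3, and the array labelled WT dark 4 read 7.57. Its range over the 13 arrays was 0.52 on the log2 scale, against 2.18 for Fos.

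The Jun genes had their highest values on the same arrays. Jun encodes c-Jun, the main substrate of the Jun N-terminal kinases and the strongest activator of the 3. Its log2 intensity was 9.94, 9.41 and 8.73 in KO light, 8.83, 8.88 and 9.01 in WT light, 8.76, 8.65 and 8.81 in KO dark and 8.78, 8.70 and 8.54 in WT dark 1 to 3, with 10.04 in the array labelled WT dark 4. The 3 WT light arrays lay above all of WT dark 1 to 3 by a small margin, and KO light spanned the whole range from the level of WT dark to near the top.

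Junb, which can replace c-Jun in dimers but activates more weakly, read 8.42, 7.80 and 6.96 in KO light, 7.12, 7.25 and 7.46 in WT light, 7.01, 7.16 and 7.15 in KO dark and 6.92, 7.05 and 6.84 in WT dark 1 to 3. The array labelled WT dark 4 again had the highest value, 8.52. WT light lay above WT dark 1 to 3 without overlap, and KO light 3 lay within WT dark 1 to 3.

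Jund is made constitutively in many tissues and is the least inducible of the Jun genes. It had 9.11, 9.02 and 8.59 in KO light, 8.68, 8.56 and 8.68 in WT light, 8.68, 8.51 and 8.71 in KO dark and 8.54, 8.55 and 8.56 in WT dark 1 to 3, with 9.24 in the array labelled WT dark 4. Its range over all arrays was 0.72, smaller than the 1.51 of Jun and the 1.68 of Junb, yet the same 3 arrays led.

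Atf3, a stress-induced ATF protein that pairs with Jun proteins and is switched on in injured neurons, had the widest range of the family, 2.46 on the log2 scale. Its log2 intensity was 9.39, 8.61 and 7.42 in KO light and 7.54, 7.82 and 7.99 in WT light. KO dark read 7.25, 7.24 and 7.31, against 7.46, 7.53 and 7.56 in WT dark 1 to 3, and the array labelled WT dark 4 reached 9.70. KO dark was thus below WT dark on all 3 arrays, the opposite order to Fos (log2 difference -0.25 ± 0.34, adjusted p = 0.969; -0.25 ± 0.05, adjusted p = 0.0611, when only these 6 arrays were fitted). Of all genes 7.45% were lower in KO dark without overlap. KO light 3 lay just below WT dark 1 to 3.

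For 7 of the 8 members, all but Fosl1, the 3 highest of the 13 arrays were KO light 1, KO light 2 and the array labelled WT dark 4. This held for 1644 of all genes (8.25%). Over the 13 arrays the members correlated with each other at r between 0.737 (Fosl1 with Jund) and 0.986 (Jun with Junb), a description that rests largely on those same 3 arrays. In whole retina, fewer cells of a type and less RNA per cell cannot be told apart, so none of these levels is a level per cell.

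The question for each comparison was which members differed beyond the spread between mice. A call needed an adjusted p under 0.05 and a ratio that reached 1.2 upward or 0.87 downward. In KO light vs KO dark, as labelled, no member was called (0.0652% of all genes were called higher). All 8 means were higher in KO light, and 6 members passed at an unadjusted p under 0.05. The median log2 difference over all genes was -0.003. The shares of all genes that did the same were not counted, and the members correlate with each other, so these counts are a description. The log2 differences ran from 0.13 ± 0.07 for Fosl2 and 0.27 ± 0.11 for Jund, through 0.57 ± 0.20 for Fosb, 0.62 ± 0.21 for Jun and 0.62 ± 0.26 for Junb, to 1.21 ± 0.34 for Atf3, whose adjusted p was 0.175. The groups did not overlap for 2 members, Fosl1 and Atf3, among 6.44% of all genes without overlap in that direction.

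With the exchanged arrays 7 members, all but Fosl2, were called higher in KO light than in KO dark, where 7.01% of all genes were. Atf3 was 3.92-fold as high (log2 difference 1.97 ± 0.20, adjusted p = 3.11e-05). Junb (1.14 ± 0.15), Jun (1.06 ± 0.13) and Fosb (1.00 ± 0.13) followed, then Fos (0.95 ± 0.18), Fosl1 (0.85 ± 0.19) and Jund (0.48 ± 0.06). Fosl2 had an adjusted p of 0.0385 at a ratio of 1.16, below the ratio required. The 3 arrays of this KO light set lay above the 3 of KO dark for all 8 members, among 20% of all genes that did so. The same 7 members were called when the array labelled KO light 3 was left out, which leaves 2 KO light arrays as labelled (Atf3 1.74, adjusted p = 0.000111). This omission picks the same array as the exchange, with its values known, so it adds no separate evidence. The share of all genes called in that setting is not given here.

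In WT light vs WT dark no member was called as labelled (0.171% of all genes were called higher), and 1, Fos, had an unadjusted p under 0.05 with the required ratio. All 8 means were higher in WT light, by 0.09 ± 0.11 for Jund, 0.15 ± 0.20 for Fosb, 0.24 ± 0.21 for Jun, 0.27 ± 0.34 for Atf3, 0.34 ± 0.26 for Junb and 0.39 ± 0.20 for Fosl1. The median over all genes was 0.016, and the share of all genes with a higher mean was not counted. Because the members correlate with each other, they are not 8 separate signs. WT light lay above WT dark 1 to 3 without overlap for 5 members, Fos, Fosl1, Jun, Junb and, by the narrowest gap, Jund, against 17.5% of all genes. With the exchanged arrays, which leave these 6 arrays as they are and change only the shared spread, Fos was called (adjusted p = 0.0111, where 2.13% of all genes were called higher) and no other member was. This call was lost with unmoderated variances (adjusted p = 0.0591).

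**Figure D2:**
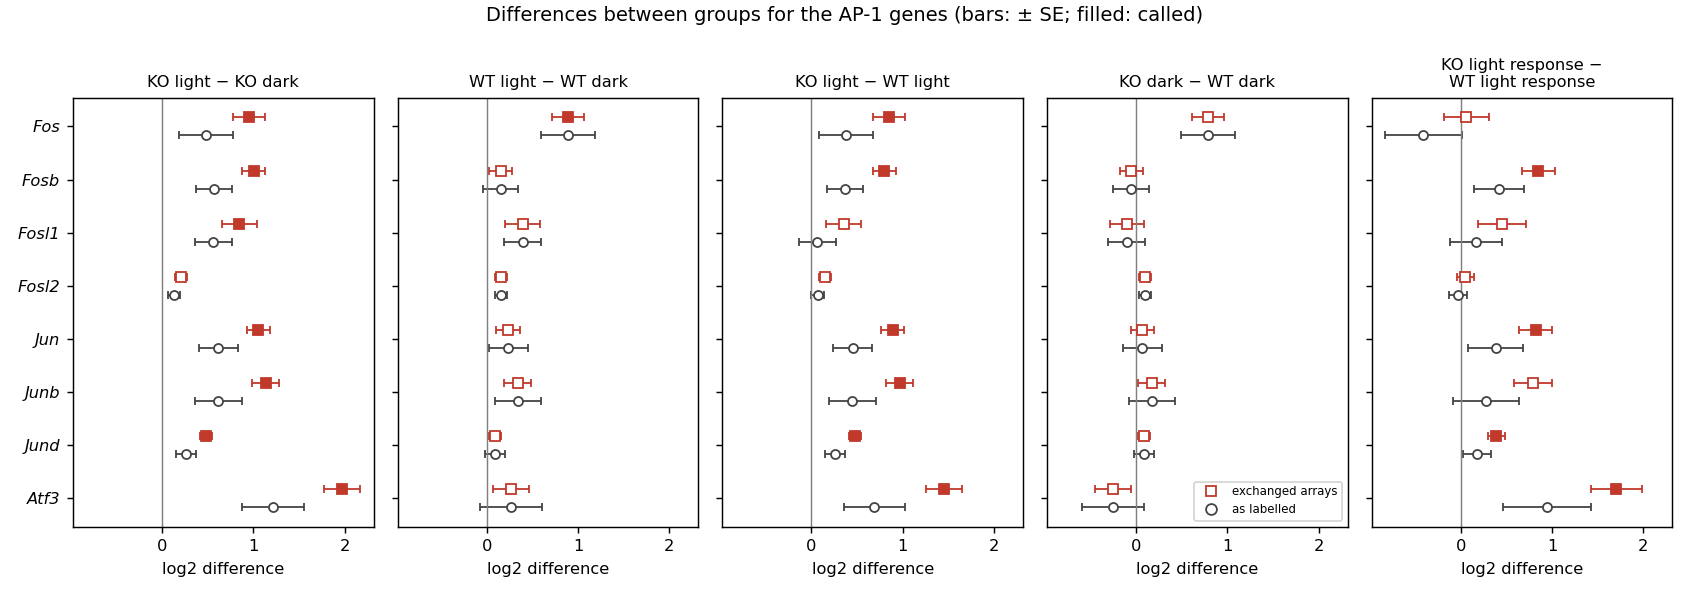
Log2 differences of the 8 AP-1 genes (x axis, ± SE of the model, 3 arrays per group) in the 4 comparisons and the interaction, with circles for the arrays as labelled and squares for the exchanged arrays; filled symbols were called. As labelled no symbol is filled, and with the exchanged arrays 7 genes are filled in KO light against KO dark but Fos alone in WT light against WT dark.

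Over all genes the median log2 difference between KO light and WT light was -0.0145 as labelled, and the share with a higher mean was not counted. KO light had the higher mean for all members. As labelled limma called none, nor at an unadjusted p under 0.05 with the required ratio (0.12% of all genes were called higher), with log2 differences of 0.69 ± 0.34 for Atf3, 0.45 ± 0.21 for Jun, 0.45 ± 0.26 for Junb, 0.38 ± 0.30 for Fos, 0.37 ± 0.20 for Fosb, 0.26 ± 0.11 for Jund and 0.07 for both Fosl1 and Fosl2. Without KO light 1 the difference of Fos was -0.05 and that of Fosl1 -0.21. No member was free of overlap between the groups (5.63% of all genes were higher without overlap). With the exchanged arrays 6 members were called higher in KO light, where 4.56% of all genes were. They were Atf3 (1.45 ± 0.20, adjusted p = 0.000664), Junb (0.97 ± 0.15), Jun (0.89 ± 0.13), Fos (0.85 ± 0.18), Fosb (0.80 ± 0.13) and Jund (0.48 ± 0.06). All but Fosl1 were free of overlap there, 7 members among 13.9% of all genes. Fosl1 differed by 0.35 ± 0.19 (adjusted p = 0.257) and Fosl2 by 0.15 ± 0.07 (adjusted p = 0.168).

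Whether the light response itself differed between the genotypes was tested by the interaction, the response of KO minus that of WT, called at an adjusted p under 0.05. As labelled it called no member, nor at an unadjusted p under 0.05 (0.0351% of all genes were called higher), and Atf3 came nearest with 0.95 ± 0.48 (adjusted p = 0.753). With the exchanged arrays it called 4 members higher, among 2% of all genes: Atf3 (1.70 ± 0.28, adjusted p = 0.00825), Fosb (0.85 ± 0.18, 0.0256), Jun (0.82 ± 0.18, 0.0337) and Jund (0.39 ± 0.09, 0.0405). Junb missed the threshold at 0.79 ± 0.21 (adjusted p = 0.064). For Fos the interaction was 0.06 ± 0.25 (adjusted p = 0.934, 95% interval -0.48 to 0.60), with a light response of 0.95 ± 0.18 in KO and 0.89 ± 0.18 in WT. All 4 calls were lost with unmoderated variances (Atf3 adjusted p = 0.0839). Those of Fosb, Jun and Jund were each also lost without one or another array of every group, whereas that of Atf3 was kept when any 1 of the 12 arrays was left out (adjusted p of up to 0.0282).

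In KO dark vs WT dark no member was called as labelled or with the exchanged arrays (0.0301% and 0.326% of all genes were called higher), and 1, Fos, passed on both sets of arrays at an unadjusted p under 0.05. Fos, which did not overlap between the groups (9.26% of all genes were higher without overlap), had an adjusted p of 0.056 with the exchanged arrays. The other members differed by between -0.25 for Atf3 and 0.17 for Junb. Other genes were called in this comparison. Of 17 measured immediate early genes outside the family, Egr1 and Nr4a1, a zinc finger factor and an orphan nuclear receptor that respond to the same inputs as Fos, were called higher in KO dark with the exchanged arrays, and so was Spry2, a feedback inhibitor of growth factor signals. Egr1 read 8.67, 8.49 and 8.83 in KO dark, against 7.19, 7.24 and 6.96 in WT dark 1 to 3, a difference larger than any spread within either group (1.54 ± 0.27, adjusted p = 0.0134). For Nr4a1 the difference was 0.93 ± 0.15 (adjusted p = 0.00752) and for Spry2 0.52 ± 0.05 (adjusted p = 0.000305). As labelled their adjusted p were 0.12, 0.598 and 0.426, and with only these 6 arrays fitted 0.000529, 0.0367 and 0.00395. The calls of Egr1 and Nr4a1 were lost with unmoderated variances (adjusted p = 0.119 and 0.0817). Egr1 (1.04 ± 0.27), Nr4a1 (0.84 ± 0.15) and Spry2 (0.53 ± 0.05) were also called higher in WT light than in WT dark. Those calls too were made with the exchanged arrays only (limma, adjusted p = 0.0343, 0.00654 and 0.000212). For these genes WT dark 1 to 3 were thus the low group against both KO dark and WT light. Dusp1, another feedback gene, read 10.03, 9.59 and 10.00 in KO dark, against 9.48, 9.48 and 9.08 in WT dark 1 to 3, and was not called. Of the 14 genes of injured neurons 1, Chac1, was called lower in KO dark with the exchanged arrays (-0.57 ± 0.09, adjusted p = 0.00513; 0.0857 as labelled and 0.059 with unmoderated variances). Some markers of amacrine and ganglion cells differed too. Th, the enzyme of dopamine synthesis in dopaminergic amacrine cells, read 7.55, 7.50 and 7.52 in KO dark, against 6.95, 7.03 and 7.14 in WT dark 1 to 3, and was called higher both as labelled (0.48 ± 0.06, adjusted p = 0.00893; 0.0612 with unmoderated variances) and with the exchanged arrays (adjusted p = 0.000345). It was also called higher in WT light than in WT dark, as labelled (0.32 ± 0.06, adjusted p = 0.0478) and with the exchanged arrays (adjusted p = 0.0036). Tfap2a was called higher in KO dark with the exchanged arrays (0.30 ± 0.05, adjusted p = 0.0137). As labelled, and with only KO dark and WT dark 1 to 3 fitted, Tfap2a was not called (adjusted p = 0.0768 and 0.0652). The means of all 5 amacrine markers were higher in KO dark, and those of 4 were higher in WT light than in WT dark. Of 6 measured ganglion cell markers 1, Slc17a6, was called lower in KO dark with the exchanged arrays (-0.21 ± 0.04, adjusted p = 0.0282). As labelled it was not called (adjusted p = 0.12). The part of these cells in the values of Fos and the other early genes was not tested.

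**Figure D3:**
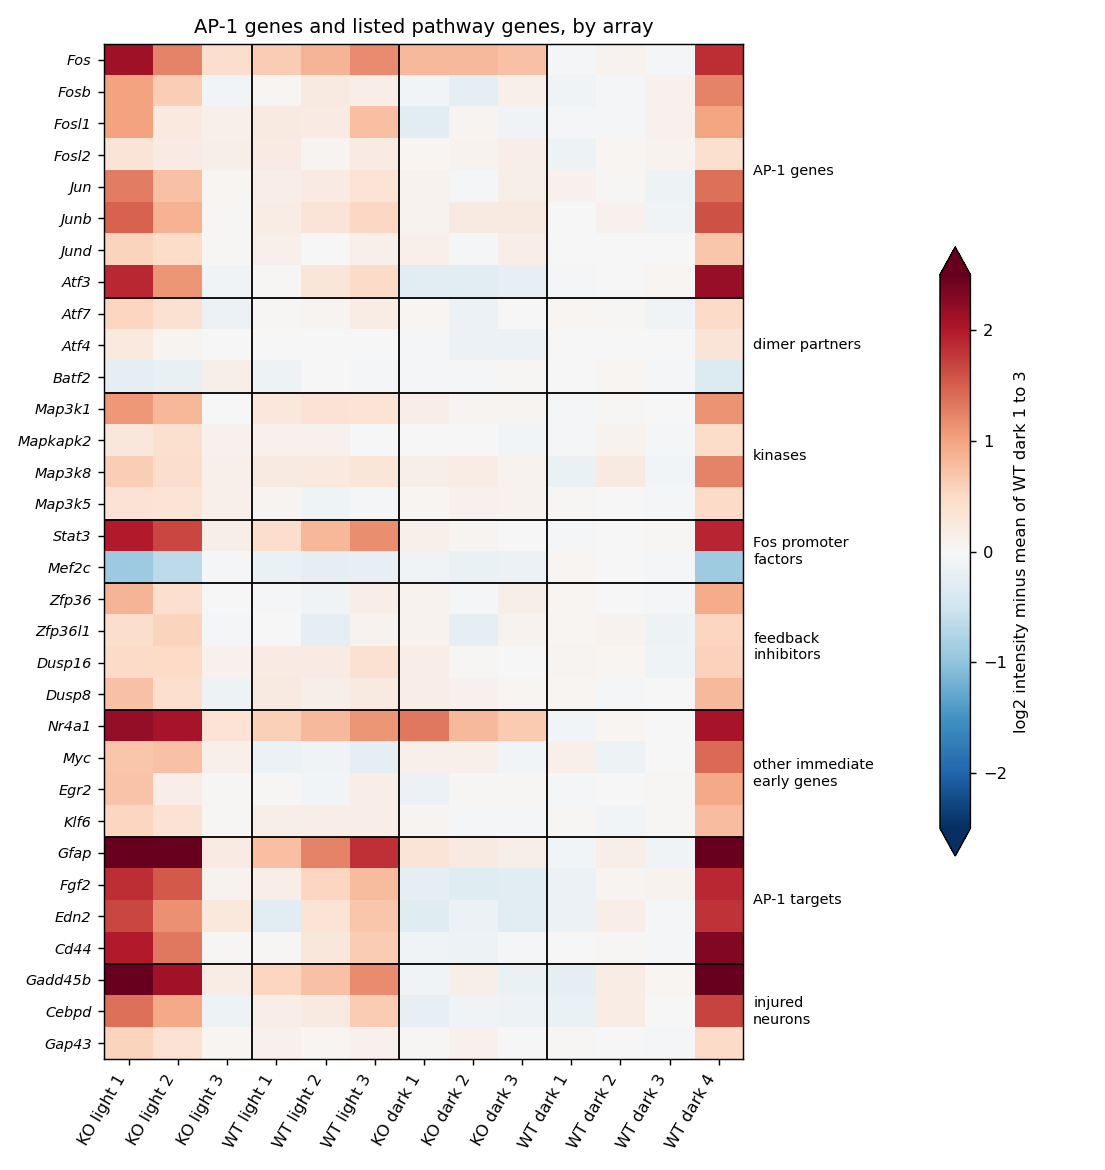
Log2 intensity of the 8 AP-1 genes and of up to 4 genes of each listed group minus the mean of WT dark 1 to 3 (colour; values beyond 2.5 take the end colour), for each of the 13 arrays (columns) from KO light to WT dark. The listed genes shown are those called in KO light against KO dark with the exchanged arrays, a choice that itself makes the columns KO light 1, KO light 2 and WT dark 4 stand out in their rows; the 8 AP-1 rows were not chosen by that comparison.

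The genes around AP-1 were then read in the same fit, from lists written with earlier results of these data known. As labelled no gene of the 7 lists was called in any comparison. On the exchanged arrays, KO light vs KO dark had a background of 7.01% of all genes higher and 6.3% lower and a median log2 difference of -0.01 over all genes.

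Among 13 dimer partners Atf7 (0.49 ± 0.07), a relative of Atf2, and Atf4 (0.32 ± 0.06), the effector of the integrated stress response, were higher, and Batf2 was lower (-0.23 ± 0.05). The remaining 10, with Atf2, Creb1, Jdp2 and the small Maf genes, were not called, and the list had a median of 0.02. Among 19 measured kinases and scaffolds of the pathways that reach AP-1, 5 were higher and 1 lower (median 0.11). They included Map3k1 (0.91 ± 0.07), Map3k8 (0.63 ± 0.16) and Map3k5 (0.31 ± 0.05), kinases at the top of the Jun N-terminal kinase and related cascades, and Mapkapk2 (0.41 ± 0.06), which acts below p38. Map3k1 read 10.18, 9.92 and 9.07 in KO light, 9.35, 9.46 and 9.43 in WT light, 9.25, 9.15 and 9.15 in KO dark and 9.07, 9.12, 9.07 and 10.20 in WT dark. Because the gene was named from the fit with the exchanged arrays, this pattern says nothing of its own about the arrays labelled KO light 3 and WT dark 4. Levels of these transcripts do not measure the activity of the kinases.

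Of 8 measured factors that act on the Fos promoter, Stat3, which carries signals of interleukin 6-type cytokines, was higher (1.78 ± 0.14, adjusted p = 5.46e-06) and Mef2c lower (-0.68 ± 0.06), and Srf and the Elk factors were not called. Stat3 was also called higher in WT light than in WT dark (0.81 ± 0.14, adjusted p = 0.0054), as was Fos. Of 16 feedback inhibitors 7 were higher and none lower (median 0.245), led by Zfp36 (0.67 ± 0.11), which destabilizes messenger RNAs of early genes, Dusp8 (0.55 ± 0.08), Zfp36l1 (0.52 ± 0.10) and Dusp16 (0.47 ± 0.07), the 2 Dusp genes encoding phosphatases of the Jun N-terminal kinases. Of 17 immediate early genes outside the family 7 were higher and none lower (median 0.30), among them Nr4a1 (1.18 ± 0.15), Myc (0.89 ± 0.15), Egr2 (0.63 ± 0.14) and Klf6 (0.55 ± 0.08).

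Known AP-1 targets were the longest of the lists. Of 26 measured, 13 were higher and none lower in KO light than in KO dark (median 0.22), and 3 in WT light than in WT dark. The 13 not called in KO light vs KO dark were Mmp3, Mmp9, Mmp10, Mmp13, Plau, Plaur, Il6, Vegfa, Fasl, Bcl2l11, Tgfb1, Nqo1 and Dmp1. Transcript levels of listed targets do not measure the activity of AP-1. Gfap, the intermediate filament of reactive glia, differed by 2.39 ± 0.19, Fgf2 by 2.02 ± 0.13, Cd44 by 1.95 ± 0.20, and Edn2, a peptide made by stressed photoreceptors, by 1.79 ± 0.20. Cd44 read 9.07, 8.40 and 7.12 in KO light, 7.12, 7.36 and 7.72 in WT light, 6.99, 6.97 and 7.05 in KO dark and 7.08, 7.12, 7.06 and 9.40 in WT dark. Its levels were close to those of Atf3 in their order over the arrays. Of 14 genes of injured neurons 3 were higher, Gadd45b (2.73 ± 0.23), Cebpd (1.47 ± 0.16) and, least, Gap43 (0.42 ± 0.05), and the median was 0.135.

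The genes whose levels over the 13 arrays were most like those of each member with a range of at least 1 log2 unit were, for Fos, Hexim1 (Pearson r = 0.968), Lztr1 and Antxr2, for Fosb, Tapbp (0.988), Rabggta and Ndp, and for Fosl1, Parp3 (0.972), Hgh1 and Tmem120a. For Jun they were Arhgef2 (0.989), Flot1 and Slc50a1, for Junb, Aldh1l1 (0.992), Socs3 and Dcps, and for Atf3, Cd44 (0.994), Dock1 and Pls1. The arrays share their groups and the 3 high arrays, so these values are a description.

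Markers of several cell types were called in the same comparison. The 5 called of 7 cone markers were all lower in KO light than in KO dark with the exchanged arrays, led by Arr3 (-1.14 ± 0.11), and so were 3 of 7 measured rod markers, led by Nrl (-0.67 ± 0.10). The summed intensity of the cone markers was 9064, 12126 and 13762 in KO light, between 12398 and 13747 in WT light, between 13966 and 14622 in KO dark, and between 14427 and 14829 in WT dark 1 to 3, with 8875 in the array labelled WT dark 4. For the rod markers the sums ran from 38635 to 41268 in KO light, 42501 to 44522 in WT light, 41818 to 43360 in KO dark and 42498 to 44091 in WT dark 1 to 3, with 37462 in the array labelled WT dark 4. Of the Müller glia markers Glul was lower (-0.65 ± 0.10) and Slc1a3 higher (0.34 ± 0.05), and of 8 markers of microglia and macrophages Cd68 (0.88 ± 0.12) and C1qa (0.31 ± 0.07) were higher and P2ry12 lower (-0.26 ± 0.08). The summed intensity of the microglia and macrophage markers was 868 to 1084 in KO light, 902 to 929 in WT light, 877 to 949 in KO dark and 904 to 927 in WT dark 1 to 3, with 1155 in the array labelled WT dark 4. Of 5 markers of vessels Kdr (0.80 ± 0.08, adjusted p = 2.83e-05) and Cldn5 (0.49 ± 0.09) were higher. Of 4 measured markers of bipolar cells Prkca (-0.36 ± 0.05) and Grm6 (-0.28 ± 0.05) were lower, and so was 1 marker each of amacrine cells (Tfap2a), ganglion cells (Rbpms) and horizontal cells (Lhx1). The part of these cells in the AP-1 values was not tested. None of 6 markers of the pigment epithelium, which lies against the retina, was called in KO light vs KO dark. Best1, 1 of them, was called lower in WT light than in WT dark as labelled (-0.30 ± 0.06, adjusted p = 0.0478). It was also called there with the exchanged arrays (adjusted p = 0.00724). Of the other markers Gfap, Th and Kdr were called higher in WT light than in WT dark with the exchanged arrays, and Onecut1 and Sncg lower. The summed intensity of the pigment epithelium markers was 1483 to 1810 in KO light, 921 to 2345 in WT light and 1235 to 3590.5 in KO dark. It was 1748 to 2876 in WT dark 1 to 3, with 3378 in the array labelled WT dark 4. Lens markers, which can come from tissue carried over in dissection, had summed intensities of 3469, 956 and 649 in KO light 1, 2 and 3. The sums were 554 to 3383 in WT light, 792 to 2426 in KO dark and 584 to 1250 in WT dark 1 to 3. In the array labelled WT dark 4 the sum was 1026. None of the 5 lens markers was called, and their part in the AP-1 values was not tested.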

How the data were processed

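Retinal RNA of 13 mice was measured on 13 arrays. The authors deposited 1 linear intensity per probe set and array, already normalized between arrays, as the values show (median intensity 141 to 146). The methods name Partek and Bioconductor; the summarization, the normalization, tool versions and the genome build are not stated in labels or methods. The labels name Trizol for RNA and the methods a kit and male mice. Intensities were taken to log2. Of 34760 probe sets 21640 carry 1 symbol, 1321 several and 11799 none, and those with exactly 1 were averaged per gene (19937 genes, 954 with several probe sets; each AP-1 gene has 1). The number of arrays limits the precision.

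With limma 3.58.1 (R 4.3.3) a model of 4 groups and no covariate was fitted to the 12 arrays, with moderated variances and Benjamini-Hochberg adjustment over all genes. The steps were tested on simulated data. Calls needed an adjusted p under 0.05 and a ratio past 1.2 upward or 0.87 downward (the interaction only the adjusted p). An unadjusted p under 0.05 was counted with the same ratios. Replicates are separate mice; with 3 against 3 an exact permutation test cannot go below p = 0.1. The alternatives were the exchanged arrays, single arrays left out, all 13 arrays, a replicate block, unmoderated variances, only the groups compared, quantile normalization, an offset of 50, dim genes (lowest 40%) left out and single probe sets. Named from the lists were up to 4 called genes with the largest difference as labelled; where none was called as labelled, called means with the exchanged arrays, a reading made after values were seen. Dusp1 and the genes named as not called were also chosen then. The members and lists were chosen with earlier results of these data known. Some genes of the lists were not analysed here, and counts are over the measured ones. The TGACGT and TGACATCA elements were added after the sequences were seen.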

Additional observations from a re-analysis of the deposited data

Results flagged for a closer look

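The array labelled WT dark 4 stood far above the other WT dark arrays for 7 of the 8 AP-1 genes. Its gap to the next highest WT dark array, as a share of the whole range of the 4 arrays, was 0.972 for Jund, 0.956 for Atf3, 0.922 for Fos, 0.876 for Junb, 0.853 for Fosb, 0.847 for Fosl1 and 0.842 for Jun, each above Dixon's 95% critical value for 4 samples. For Fosl2 the share was 0.593. Chance passes this limit in about 1 of 20 groups, and the 7 values come from 1 array, so they count as 1 sign rather than 7. That rate holds for an array not picked beforehand, whereas this array was already known to stand apart. It is also the only male of the 4, so the shares are a description.

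With the exchanged arrays the interaction of genotype and light in limma called 4 members. The third KO light array of that fit was labelled WT dark 4 and was chosen with its values known. These calls are therefore no independent evidence of a difference between the genotypes. The response of KO minus that of WT was 1.7027 on the log2 scale for Atf3, 0.8515 for Fosb, 0.8206 for Jun and 0.3915 for Jund. As labelled the same differences were 0.95, 0.42, 0.38 and 0.18, and none passed. With the exchanged arrays all 4 were lost with unmoderated variances (Atf3 adjusted p = 0.0839), and those of Fosb, Jun and Jund were lost when single arrays were left out.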

How the results depend on the processing

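As labelled, none of the 8 AP-1 genes was called in any comparison, and the count of all genes called was 15 in KO dark vs WT dark, 35 in KO light vs WT light, 20 in KO light vs KO dark, 86 in WT light vs WT dark and 12 for the interaction. The exchanged arrays gave 6 members called in KO light vs WT light, 7 in KO light vs KO dark, 1 in WT light vs WT dark and 4 for the interaction, and the counts of all genes in the same 4 comparisons were 1640, 2653, 880 and 555. With only the groups compared in the fit, 1 member, Fos, was called in KO dark vs WT dark and 1, again Fos, in WT light vs WT dark. When each array was left out as labelled, between 0 and 6 members were called in KO light vs WT light, 0 and 7 in KO light vs KO dark, 0 and 1 in WT light vs WT dark and 0 and 2 for the interaction. The highest of these counts came without the array labelled KO light 3, and Fos was also called in WT light vs WT dark without KO light 1 (adjusted p = 0.0445). No other alternative applied to the arrays as labelled called a member. The count of all genes over the alternatives ran from 1 to 175 in KO dark vs WT dark, 0 to 1640 in KO light vs WT light, 0 to 2653 in KO light vs KO dark, 9 to 880 in WT light vs WT dark and 1 to 555 for the interaction. On the exchanged arrays, leaving out each array gave 0 to 1 members in KO dark vs WT dark (Fos, without KO light 1, KO light 2 or WT light 3), 1 to 2 in WT light vs WT dark (Junb besides Fos without KO light 2) and 1 to 5 for the interaction. With unmoderated variances there, 0 were called in WT light vs WT dark and 0 for the interaction (Atf3 adjusted p = 0.0839). The shares of all genes called in each setting with 1 array left out are not given here. The counts of members in those settings are therefore a description and show nothing particular to the AP-1 genes.

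Among values of single genes, 26 of 2139 changed sign as labelled and 4 of 1590 with the exchanged arrays. The interaction of Fos was 0.062 and that of Fosl2 0.052 with the exchanged arrays, and they were 0.056 and 0.070 with all 13 arrays. With all 13 arrays, which put the array labelled WT dark 4 among WT dark, KO dark minus WT dark was -0.00030 for Fosl2, -0.27 for Jun, -0.22 for Junb and -0.084 for Jund, and WT light minus WT dark was -0.16 for Fosb, -0.11 for Jun, -0.054 for Junb, -0.080 for Jund and -0.28 for Atf3. With 1 array left out, KO dark minus WT dark ran from -0.14 to 0.028 for Fosb on either set of arrays, KO light minus WT light from -0.045 to 0.79 for Fos and from -0.21 to 0.25 for Fosl1, and KO light minus KO dark from -0.17 to 0.032 for Rbpms, a ganglion cell marker. The interaction then ran from -0.83 to 0.0049 for Fos, -0.11 to 0.35 for Fosl1, -0.074 to 0.035 for Fosl2 and -0.072 to 0.66 for Junb, and with the exchanged arrays from -0.13 to 0.31 for Fos. The low ends for KO light vs WT light and for the interaction came without KO light 1. The cause of these shifts was not tested.

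The labels do not state that mice with equal replicate numbers were paired, and the main model did not pair them. Deviations from the group means correlated between arrays of the same number at r from -0.192 to 0.22, 2 of 18 pairs were over 0.1, and 5 correlated best with their own number. With the number as a replicate block 0 members were called in each comparison, and the count of all genes was 13 in KO dark vs WT dark, 11 in KO light vs WT light, 11 in KO light vs KO dark, 17 in WT light vs WT dark and 3 for the interaction. The number of arrays limits the precision.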
